A study of Mus musculus with 10 samples.

Results

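The genes described here are 9 Nkx homeobox factors, Nkx1-2, Nkx2-1, Nkx2-2, Nkx2-3, Nkx2-5, Nkx2-9, Nkx3-2, Nkx6-1 and Nkx6-2, taken by symbol from the 24500 gene rows of the ChIP-seq count tables. All 9 had a row. ChIP-seq for H3K27me3 and for EZH2 was carried out in E14 cells, a mouse embryonic stem (ES) cell line whose strain is labelled 12910la. The control cells were wild-type. The ex14D cells carry an in/del made with CRISPR-Cas9 in exon 14 of Ezh2, so that the splice form without this exon is the one left intact. The labels give their genotype as Ezh2-knock out of exon14 and their titles as Ezh2KO. Each genotype had 2 H3K27me3 libraries, 2 EZH2 libraries and 1 input library, 10 libraries in all. How many clones the ex14D libraries came from is not given in the sources used here, and nothing says that libraries of 1 group came from separate cultures, so p-values measure the spread between these libraries, which may be technical. A change in the share of cells that carry a mark cannot be told apart from a change within each cell.

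Nkx proteins are DNA-binding transcription factors of the NK homeobox class, each of which helps to specify tissues of the embryo. Nkx2-2, Nkx2-9, Nkx6-1 and Nkx6-2 act in the ventral neural tube, where Sonic hedgehog signalling sets their domains, and Nkx2-2 and Nkx6-1 act again in the endocrine pancreas. Nkx2-1 acts in the thyroid, lung and ventral forebrain, Nkx2-5 in the heart, Nkx2-3 in the spleen and gut mesenchyme, Nkx3-2 (also called Bapx1) in the axial skeleton and Nkx1-2 in the caudal epiblast and neural plate. In ES cells such lineage genes are classical targets of Polycomb repressive complex 2 (PRC2), whose catalytic subunit EZH2 trimethylates lysine 27 of histone H3, usually at CpG-rich promoters.

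In the RefSeq annotation of GRCm38.p6 the 9 genes lie on 6 chromosomes, with Nkx2-3 alone on the forward strand. On chromosomes shared by members are Nkx1-2 at chr7:132596239-132599637, Nkx6-2 at chr7:139579376-139582797, Nkx2-1 at chr12:56531935-56536908, Nkx2-9 at chr12:56611393-56613284, Nkx3-2 at chr5:41761483-41764220 and Nkx6-1 at chr5:101659184-101664711. The others are Nkx2-2 at chr2:147177546-147186402, Nkx2-3 at chr19:43612325-43615892 and Nkx2-5 at chr17:26838665-26841565.

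The promoters carry this CpG-rich sequence to very different degrees. In GRCm38.p6 the 300-base RefSeq promoter window, which runs from 250 bases before to 50 bases after the start, held 40 CpG dinucleotides at Nkx6-1, 32 at Nkx6-2, 25 at Nkx3-2, 21 at Nkx1-2, 17 at Nkx2-2, 15 at both Nkx2-3 and Nkx2-9, 12 at Nkx2-1 and 9 at Nkx2-5. All 9 genes matched this table, and the median over its 32851 promoters was 7. Only 3.91% of those promoters held as many CpGs as Nkx6-1, while 45.8% held as many as Nkx2-5. Sequence is shown for 3 genes whose H3K27me3 values recur in the results. Nkx1-2 has a dense CpG stretch, Nkx2-1 has fewer CpGs, and Nkx2-3 had the most H3K27me3 reads of the 9. The 250 bases before each start follow. They are written 5′ to 3′ on the coding strand with every CpG in capitals, and no exon of the RefSeq or GENCODE annotation overlaps them.
Nkx1-2: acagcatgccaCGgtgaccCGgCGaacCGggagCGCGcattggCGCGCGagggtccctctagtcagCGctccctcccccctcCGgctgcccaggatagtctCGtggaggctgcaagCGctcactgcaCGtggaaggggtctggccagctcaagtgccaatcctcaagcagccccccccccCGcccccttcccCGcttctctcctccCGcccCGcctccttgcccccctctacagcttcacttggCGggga
Nkx2-1: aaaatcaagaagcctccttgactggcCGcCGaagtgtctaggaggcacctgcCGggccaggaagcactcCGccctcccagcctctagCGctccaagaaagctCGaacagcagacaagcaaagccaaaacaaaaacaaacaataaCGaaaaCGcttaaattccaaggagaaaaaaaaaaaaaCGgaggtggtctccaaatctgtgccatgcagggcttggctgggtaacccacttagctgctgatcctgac
Nkx2-3: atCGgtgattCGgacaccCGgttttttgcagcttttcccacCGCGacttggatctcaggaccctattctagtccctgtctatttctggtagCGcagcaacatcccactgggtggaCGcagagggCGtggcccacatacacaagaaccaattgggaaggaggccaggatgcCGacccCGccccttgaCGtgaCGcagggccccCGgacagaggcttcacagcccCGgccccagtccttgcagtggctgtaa
The Nkx1-2 stretch lies at chr7:132599638-132599887 on the reverse strand and holds 19 CpGs. The Nkx2-1 stretch lies at chr12:56536909-56537158, also on the reverse strand, and holds 9. The Nkx2-3 stretch lies at chr19:43612075-43612324 on the forward strand and holds 14. CpG number is a description of these sequences. Nkx2-1, with fewer CpGs than Nkx1-2, had the higher H3K27me3 level of this pair in every library. The pair was picked, and no relation of CpG number to H3K27me3 level was tested.

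Reads on the promoter windows, 1 kb each and centred on the transcription start, numbered 594289 and 937207 for H3K27me3 in control, 1450937 and 1248018 in ex14D and 409371 and 416778 in the inputs. Reads on genes in the EZH2 libraries numbered from 13628137 to 18403892. A chi-square comparison of the libraries of 1 group gave 1.48 to 3.95 per degree of freedom, above sampling noise, so no library was taken for a repeat of another. All levels are given as CPM, the usual depth-scaled count, taken here over the reads on all promoters or genes of the same library. The methods describe no spike-in, so a level says how a gene stood among the others of its library and not how much mark the cells held. Marker promoters fixed for the cell type were read in the same way: 7 of 8 ES cell genes, Pou5f1, Sox2 and Nanog among them, were under 1 on the scale log2((CPM + 1)/(input CPM + 1)) in every H3K27me3 library, the highest value being 1.81 at Klf4. All 4 primitive endoderm, 3 mesoderm and 3 neural marker promoters were at 1 or above in every library.

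All 9 Nkx promoters were marked by H3K27me3 in both genotypes. In the control libraries their reads stood between 4.99 times the input at Nkx2-9 and 14.4 times at Nkx2-2, as (CPM + 1) over (input CPM + 1), and this put them at percentiles 94.9 to 99.6 of all 24500 promoters. In the ex14D libraries the ratio ran from 6.02 at Nkx2-9 to 45.8 at Nkx2-2, at percentiles 96.2 to 99.9. The inputs themselves held 9 to 29 reads on each of these promoters. In edgeR's quasi-likelihood test of H3K27me3 against input all 9 were higher in each genotype, against 25.2% of 21261 promoters in control and 20.9% in ex14D. The log2 difference in that fit ran from 4.03 ± 0.38 (Nkx2-9) to 5.39 ± 0.38 (Nkx2-2) in control and from 4.58 ± 0.37 (Nkx2-9) to 7.31 ± 0.40 (Nkx2-2) in ex14D, on its TMM scale and with 1 input library a genotype. Between the inputs themselves the 9 promoters differed by -0.68 to 0.23 on the log2 scale. With 1 input library a genotype the fit took its spread from the H3K27me3 libraries, so it cannot show that the inputs agree.

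The order of the levels differed in detail between the genotypes. In control cells Nkx2-3 had the highest mean H3K27me3 level, 649 ± 124 CPM (SD, n = 2), followed by Nkx2-1 with 539 ± 48.9, Nkx6-1 with 503 ± 52.2 and Nkx1-2 with 443 ± 40.4. Nkx6-2 (405 ± 13.1), Nkx2-2 (391 ± 13.1), Nkx2-5 (385 ± 49.8) and Nkx3-2 (341 ± 51.5) came next, and Nkx2-9 was lowest with 236 ± 35.0. Each neighbour in this order overlapped the next over the 2 libraries except Nkx3-2 and Nkx2-9. In ex14D cells Nkx2-3 was again highest with 1431 ± 231 CPM, and Nkx2-2 had moved to the second place with 945 ± 125. Nkx6-1 (926 ± 104), Nkx2-1 (897 ± 4.67), Nkx1-2 (681 ± 48.3), Nkx2-5 (613 ± 38.6), Nkx6-2 (586 ± 39.8), Nkx3-2 (388 ± 46.3) and Nkx2-9 (298 ± 25.5) followed. There Nkx2-2 and Nkx6-1, Nkx6-1 and Nkx2-1, and Nkx2-5 and Nkx6-2 were the neighbours that overlapped.

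**Figure D1:**
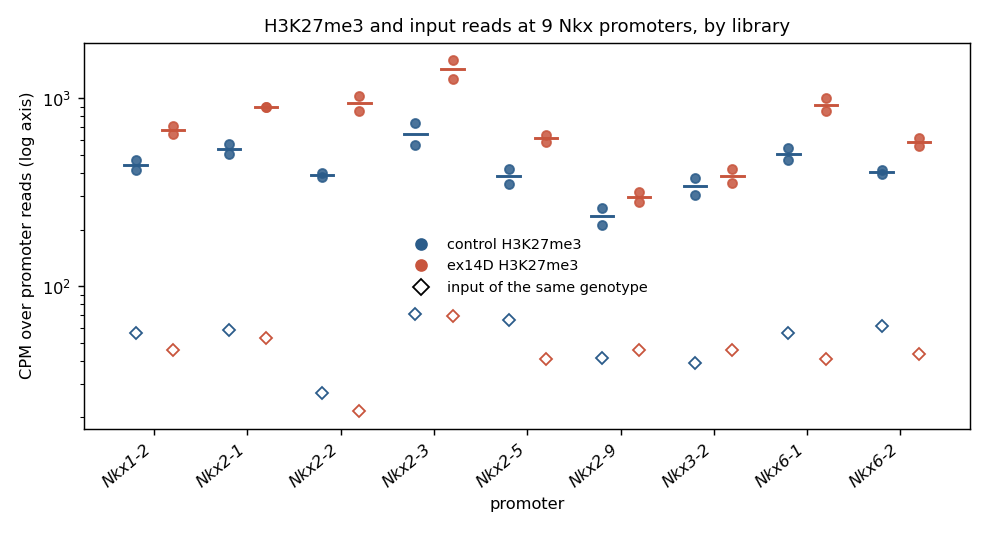
H3K27me3 reads at each Nkx promoter in CPM on a log axis, with 1 filled point per H3K27me3 library, a bar at the mean of 2 libraries and an open diamond for the single input of that genotype. Every H3K27me3 point lies above its input, and the ex14D points lie above the control points at every promoter but Nkx3-2, where 355 CPM in 1 ex14D library falls below 377 CPM in 1 control library.

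The comparison of ex14D with control cells asked how the mark at these targets stood when the exon 14 form of EZH2 was disrupted. By Western blot the paper reported less EZH2 protein and less H3K27me3 in the ex14D lines. By ChIP-PCR it reported less H3K27me3 at several developmental genes, none of them an Nkx gene. From ChIP-seq it reported lower EZH2 enrichment at target genes in ex14D cells, and H3K27me3 still present at most target genes. Levels here are relative within a library, so a rise in them does not mean more mark in the cells. After TMM scaling, which sets the middle of all promoters near no change, the relative H3K27me3 level was higher in ex14D at all 9 Nkx promoters in edgeR's quasi-likelihood test, with p-values adjusted over all 14883 promoters tested. Among all of these, 5.85% were called higher and 3.19% lower. The log2 fold changes of the 9 ran from 0.64 to 1.72 with a median of 1.12, where the median of all promoters tested was -0.02. With scaling to total promoter reads alone 398 promoters were called higher and 2176 lower, the median of all promoters moved to -0.47, the median of the 9 became 0.66 and the calls at Nkx2-9 and Nkx3-2 were lost (adjusted p = 0.252 and 0.527), while the sign stayed positive at all 9. With all counted reads as library size, 633 were higher and 585 lower, with the same 2 calls lost. With the change of the inputs taken out in the same fit, the 9 values were 0.32 to 1.93 and none passed (adjusted p 0.201 to 0.936 in edgeR, 7 of 9 at an unadjusted p under 0.05), with 1 input library a genotype. Without control replicate 2 the calls at Nkx1-2, Nkx2-9, Nkx3-2 and Nkx6-2 were lost and 5 of 9 remained, in a fit that called 1.35% of 18841 promoters higher and 0.387% lower.

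The ventral neural tube genes held both the largest change and one of the smallest. Nkx2-2, which specifies the V3 interneuron domain, had 400.5 and 382 CPM in control and 857 and 1033 CPM in ex14D. The ex14D libraries lay far above the control libraries, and the log2 fold change was 1.72 ± 0.20 (SE, adjusted p = 3.67e-06). Nkx6-1, needed for motor neurons and for insulin-producing cells, had 540 and 466 CPM in control and 853 and 1000 CPM in ex14D. Its groups stood apart and it rose by 1.33 ± 0.20 on the log2 scale (adjusted p = 5.33e-05). Nkx6-2, its close relative, which also acts in myelinating oligodendrocytes, had 395 and 414 CPM in control and 558 and 615 CPM in ex14D, a log2 fold change of 0.98 ± 0.20 (adjusted p = 0.00123). Nkx2-9, which overlaps Nkx2-2 in the most ventral progenitors, had the lowest level of all in every library, with 261 and 211 CPM in control and 316 and 280 CPM in ex14D. These groups did not overlap but lay close, and the log2 fold change was 0.79 ± 0.21 (adjusted p = 0.0129).

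Among the genes of other organs, Nkx2-3, a factor of spleen and gut wall, changed most. It had 737 and 561 CPM in control and 1268 and 1595 CPM in ex14D, a rise of 1.59 ± 0.21 on the log2 scale (adjusted p = 1.32e-05). Its 2 control libraries were spread more widely than those of any other member, yet both lay far below the ex14D libraries. Nkx2-1, the thyroid and lung factor, had 574 and 505 CPM in control and 893 and 900 CPM in ex14D, and its ex14D libraries were almost equal. Its log2 fold change was 1.18 ± 0.20 (adjusted p = 0.000163). Nkx2-5, the early heart factor, had 350.0 and 420 CPM in control and 640 and 586 CPM in ex14D, a log2 fold change of 1.12 ± 0.20 (adjusted p = 0.000344). Input reads at Nkx2-5 also differed, 27 in control and 17 in ex14D, so its ratio over input moved more than its CPM did, from 5.24 and 6.29 to 15.3 and 14.04. Nkx1-2, of the caudal epiblast, had 471 and 414 CPM in control and 647 and 716 CPM in ex14D (log2 fold change 1.07 ± 0.20, adjusted p = 0.000549). Nkx3-2, which keeps cartilage cells immature in the axial skeleton, was the member nearest to no change, with 377 and 304 CPM in control and 420 and 355 CPM in ex14D. Its groups overlapped in CPM, its log2 fold change of 0.64 ± 0.20 passed narrowly (adjusted p = 0.0458), and its ratio over input was 9.43 and 7.61 in control against 9.05 and 7.64 in ex14D.

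**Figure D2:**
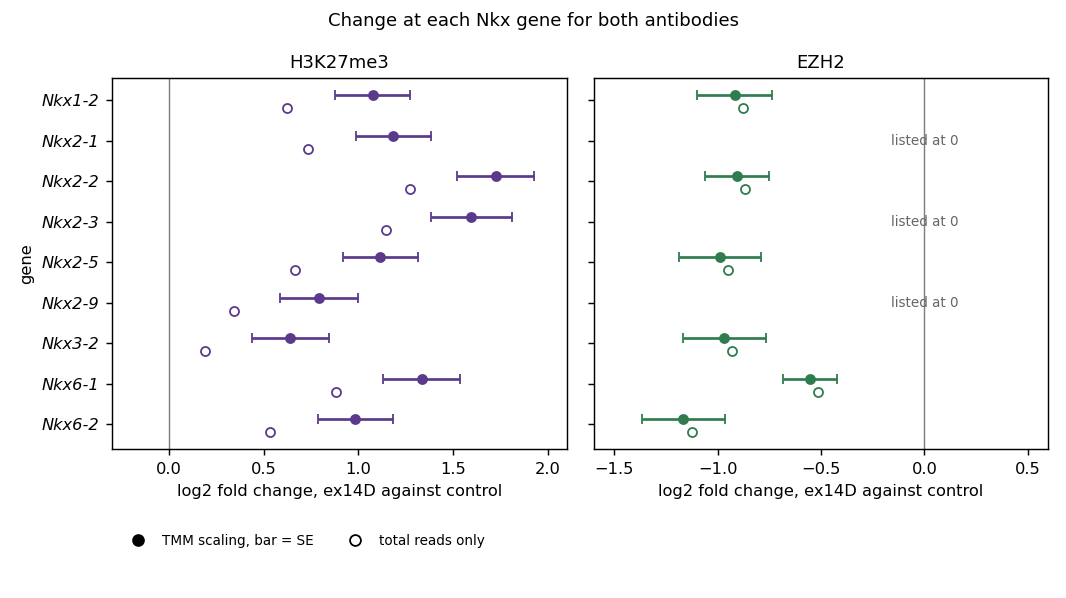
Log2 fold change of ex14D against control at each Nkx gene, H3K27me3 at left and EZH2 at right, with filled points and SE bars under TMM scaling and open points under scaling to total reads. H3K27me3 points are positive at all 9 genes and lie closer to 0 under scaling to total reads, lowest at Nkx3-2 with 0.19, and EZH2 points are negative at the 6 genes with EZH2 counts.

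Promoters marked as strongly as the Nkx genes often had the same direction. The lowest value that any of the 9 had in a control library was 2.32 as log2 over input. Of the tested promoters, 1015, the 9 included, were at or above it in both control libraries. Of these 545, 53.7%, were called higher in ex14D against 15 called lower. Their median log2 fold change was 0.70, with the middle of them between 0.33 and 1.13 (25th and 75th percentile). Nkx2-2, Nkx2-3, Nkx6-1 and Nkx2-1 lay above that range, Nkx2-5, Nkx1-2, Nkx6-2, Nkx2-9 and Nkx3-2 within it. Rises were thus frequent at strongly marked promoters in general, and whether the Nkx promoters differ from them was not tested.

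**Figure D3:**
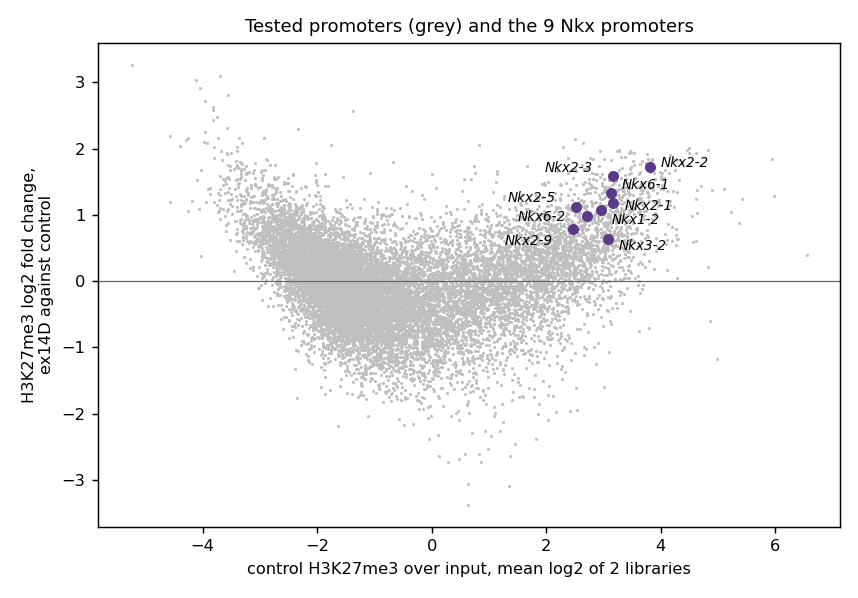
Each tested promoter by its control H3K27me3 level over input (x, mean log2 of 2 libraries) and its log2 fold change in ex14D (y), with the 9 Nkx promoters in purple and the others in grey. The Nkx promoters lie at the marked end of the x axis and at log2 fold changes from 0.64 to 1.72, among many other promoters of like level, and positive values are also seen at the lowest control levels.

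Of all promoter reads the 9 together held 0.411% and 0.368% in control, then 0.645% and 0.708% in ex14D, against 0.0476% and 0.0405% in the inputs. That share is set by total reads and moves with the other promoters of the library. A comparison within the 9 promoters, by shares of their summed reads, does not depend on how libraries are scaled. Of these summed reads Nkx2-2 took 9.75% (exact 95% binomial interval 8.61% to 11.0%) and 10.4% (9.39% to 11.5%) in control and 13.3% (12.6% to 13.98%) and 14.6% (13.9% to 15.3%) in ex14D. Nkx3-2 took 9.18% (8.06% to 10.4%) and 8.27% (7.37% to 9.24%) in control and 6.52% (6.02% to 7.03%) and 5.02% (4.57% to 5.49%) in ex14D. The intervals cover counting error only. Of the 36 pairs of members, 27 had a ratio of reads that did not overlap between genotypes and 9 had one that did. These pairs reuse the same genes and libraries. The share among pairs of other promoters was not counted, so the count is no result about the Nkx genes. For a pair picked because its members changed most and least, Nkx2-2 and Nkx3-2, the ratio within 1 library was 1.06 and 1.26 in control against 2.04 and 2.91 in ex14D, and for Nkx2-3 and Nkx2-9, picked in the same way, it was 2.83 and 2.66 against 4.02 and 5.70. With 2 libraries against 2, an exact permutation test of such a ratio cannot go below a two-sided p of 0.333. The shares of Nkx6-1, 13.2% and 12.7% in control and 13.2% and 14.1% in ex14D, lay close together.

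Broad H3K27me3 peaks, called by the authors with MACS2 in each library, covered all 9 promoter windows in all 4 libraries. Among 24336 promoters placed on GRCm38, 18.0% had a peak in both control libraries and 16.5% in both ex14D libraries. The peaks were wide and held the whole gene, from start to 3′ end, at all 9 genes in every library. Their median width was 18.7 and 25.5 kb in control and 18.5 and 17.4 kb in ex14D, where the median over all peaks of a library was between 1601 and 2173 bp. Nkx2-3 had the widest peak in the first library of both genotypes, 29.9 kb in control and 29.8 kb in ex14D, reaching 18.6 kb upstream of the start in each. The Nkx2-1 peak, 25.9 and 30.8 kb in control and 27.7 and 26.7 kb in ex14D, ran mostly downstream, 20.2 to 24.7 kb past the start of a gene that spans 4974 bp, and took in the start of E030019B13Rik. The Nkx2-2 peak, 25.01 and 26.6 kb in control and 23.9 and 22.3 kb in ex14D, took in the starts of Nkx2-2os and 6430503K07Rik. Nkx2-9 lies only 76.4 kb from Nkx2-1 on chromosome 12, but had a separate peak of 7.90 and 11.6 kb in control and 10.7 and 9.29 kb in ex14D.

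The fold enrichment that MACS2 gave these peaks differed between genotypes at most of the genes. At Nkx2-2 it was 6.24 and 8.56 in control against 23.2 and 16.97 in ex14D, and at Nkx6-1 5.81 and 7.07 against 18.4 and 19.6. At Nkx2-5 it was 2.21 and 2.59 in control against 7.23 and 7.07 in ex14D, and at Nkx2-3 4.38 and 2.86 against 8.36 and 11.5. Both ex14D values lay above both control values at 6 of the 9 genes, these 4 and also Nkx2-1 and Nkx2-9. The median fold over all peaks of a library was higher in ex14D too, 4.77 and 5.50 against 3.30 and 3.04 in control. As a percentile among the peaks of its own library the fold was higher in both ex14D libraries at 3 genes, Nkx2-3, Nkx2-5 and Nkx6-1, lower at Nkx1-2 and overlapping at 5, Nkx2-1 and Nkx2-2 among them. Nkx1-2 went the other way, with 3.97 and 7.15 in control and 3.91 and 2.72 in ex14D, although its promoter count was higher in ex14D. At Nkx3-2 the value was 3.22 and 1.89 in control and 11.6 and 2.69 in ex14D, so the ex14D libraries differed from each other more than the genotypes did. Peak width was lower in both ex14D libraries at 4 genes, Nkx1-2, Nkx2-2, Nkx2-5 and Nkx6-1, and overlapped at the other 5. How many of all peaks were narrower in ex14D, or had a fold or percentile apart between genotypes, was not counted. The counts of genes given here are therefore no result about the Nkx genes. Fold and width come from separate peak calls in libraries of unequal depth and were not tested. With peaks of at least 3 in −log10 q alone, 4 control peaks dropped out, at Nkx2-5 in 1 library, Nkx2-9 in both and Nkx3-2 in 1.

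EZH2 reads moved in the opposite direction. The study's methods name 1 kb promoter windows for counting, but the EZH2 counts followed gene span (Spearman's rho across 13874 genes 0.887 to 0.925), so they are read here as counts over genes, and levels between genes are therefore given per kb of gene. Of the 9 genes 6 had EZH2 counts, and all 6 were lower in ex14D in edgeR's quasi-likelihood test, against 7.88% of 13401 genes called lower and 0.0522% called higher. Their log2 fold changes ran from -1.17 to -0.55 with a median of -0.94, where the median of all genes was 0.02. Of 2413 tested genes with an EZH2 domain over the promoter in both control libraries, 940 (39.0%) were called lower, with a median of -0.22.

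Among the ventral neural tube genes, Nkx6-2 had 112 and 109 CPM of EZH2 in control and 64.1 and 37.7 CPM in ex14D, and fell by 1.17 on the log2 scale (SE 0.20, adjusted p = 0.0139). Nkx2-2 had 111 and 116 CPM in control and 74.6 and 50.5 CPM in ex14D, a fall to 0.533 of control (log2 fold change -0.91 ± 0.16, adjusted p = 0.0136). An antisense gene, Nkx2-2os, overlaps Nkx2-2, and ChIP reads carry no strand of transcription, so the reads of these genes could not be divided and this count is uncertain. Nkx6-1 had the highest EZH2 count of the 6, 254 and 246 CPM in control and 204 and 147 CPM in ex14D. It fell least, by 0.55 on the log2 scale (SE 0.13, adjusted p = 0.0459), and the call was lost with DESeq2 size factors (adjusted p = 0.0619) and with all counted reads as library size (adjusted p = 0.0503). Its groups still did not overlap.

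The heart gene Nkx2-5 had 148 and 145 CPM in control and 95.6 and 57.0 CPM in ex14D (log2 fold change -0.99 ± 0.20, adjusted p = 0.0238). The skeletal gene Nkx3-2 had 138 and 132 CPM in control and 89.2 and 53.0 CPM in ex14D (-0.97 ± 0.20, adjusted p = 0.0269). Nkx1-2 had 121 and 117 CPM in control and 79.8 and 50.3 CPM in ex14D (-0.92 ± 0.18, adjusted p = 0.0213). At all 6 genes the control libraries lay close together, and the second ex14D library was lower than the first. Against the first ex14D library the median difference of the 6 from the control libraries was -0.64 and -0.61 on the log2 scale, and against the second it was -1.35 and -1.30. Per kb of gene the control levels were 50.5 CPM at Nkx2-5, 49.2 at Nkx3-2, 45.2 at Nkx6-1, 35.0 at Nkx1-2, 32.3 at Nkx6-2 and 12.8 at Nkx2-2, whose annotated span of 8857 bp is the longest of the 9 genes. With either control library left out none of the 6 calls held in edgeR, with all 6 at an unadjusted p under 0.05 and values of -0.53 to -1.18. No gene at all was then called, with 1372 and 1300 genes lower at an unadjusted p under 0.05.

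**Figure D4:**
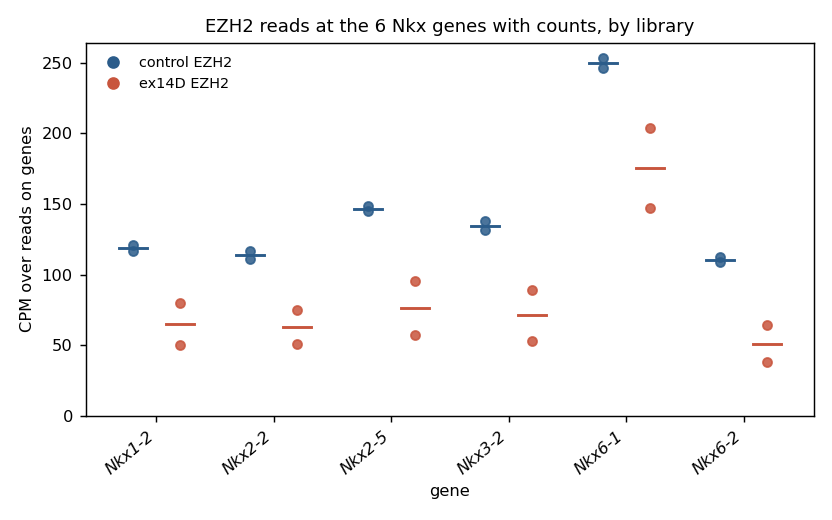
EZH2 reads at the 6 Nkx genes with counts, in CPM over reads on genes from 0, with 1 point per library and a bar at the mean of 2. Both ex14D points lie below both control points at every gene, from 204 and 147 CPM at Nkx6-1 to 64.1 and 37.7 CPM at Nkx6-2, and the ex14D points lie farther apart than the control points.

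Nkx2-1, Nkx2-3 and Nkx2-9 had no EZH2 read listed in any of the 4 libraries, so no comparison was made for them. The 0 was not particular to them: 10575 genes were at 0 throughout, among them an unbroken stretch of 662 genes over 83.1 Mb of chromosome 12 that holds Nkx2-1 and Nkx2-9, and 266 genes over 24.7 Mb of chromosome 19 that hold Nkx2-3. The EZH2 domains of the same libraries, called by the authors with hiddenDomains, covered all 3 promoters in both genotypes. These 0 values are therefore not read here as a lack of EZH2.

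An EZH2 domain lay over the promoter window of all 9 genes in all 4 EZH2 libraries, against 16.8% of placed promoters in both control libraries and 10.4% in both ex14D libraries. The domains come in steps of 1 kb. Their median width was 15 and 16 kb in control and 9 and 15 kb in ex14D, and their summed width was 135 and 153 kb against 115 and 121 kb. At Nkx3-2 the domain was 15 and 16 kb wide in control and 9 and 8 kb in ex14D, the side downstream of the start going from 11.2 kb to 5.22 kb. At Nkx2-5 it was 17 and 23 kb in control and 9 and 15 kb in ex14D. Nkx2-1 kept a domain of 25 and 25 kb in control against 24 and 24 kb in ex14D, and Nkx2-3 one of 23 and 26 kb against 23 and 24 kb. Width was lower in both ex14D libraries at Nkx1-2, Nkx2-1, Nkx2-2, Nkx2-5, Nkx3-2 and Nkx6-2. It overlapped between genotypes at Nkx2-3, Nkx2-9 and Nkx6-1. The libraries held 7322 and 7704 domains in control and 5067 and 4122 in ex14D, with median widths of 2000 and 3000 bp in each genotype. How many of all domains were narrower in ex14D was not counted, so a general narrowing cannot be told apart from one at these genes.

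The EZH2 domains lay inside the H3K27me3 peaks. In ex14D every pairing of an EZH2 library with an H3K27me3 library had 100% of the domain within the peak at all 9 genes, and in control the median was also 100%, with a lowest value of 73.3% at Nkx6-2. The share of the peak that the domain covered had a median of 80.5% in control and 72.3% in ex14D. It differed most at Nkx3-2, where the median over pairs of libraries was 76.4% in control and 41.0% in ex14D. At Nkx6-1 it was 65.9% and 83.5%, higher in ex14D, where the peak was narrower. Depth and the number of calls differed between libraries, and these shares were not tested.

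**Figure D5:**
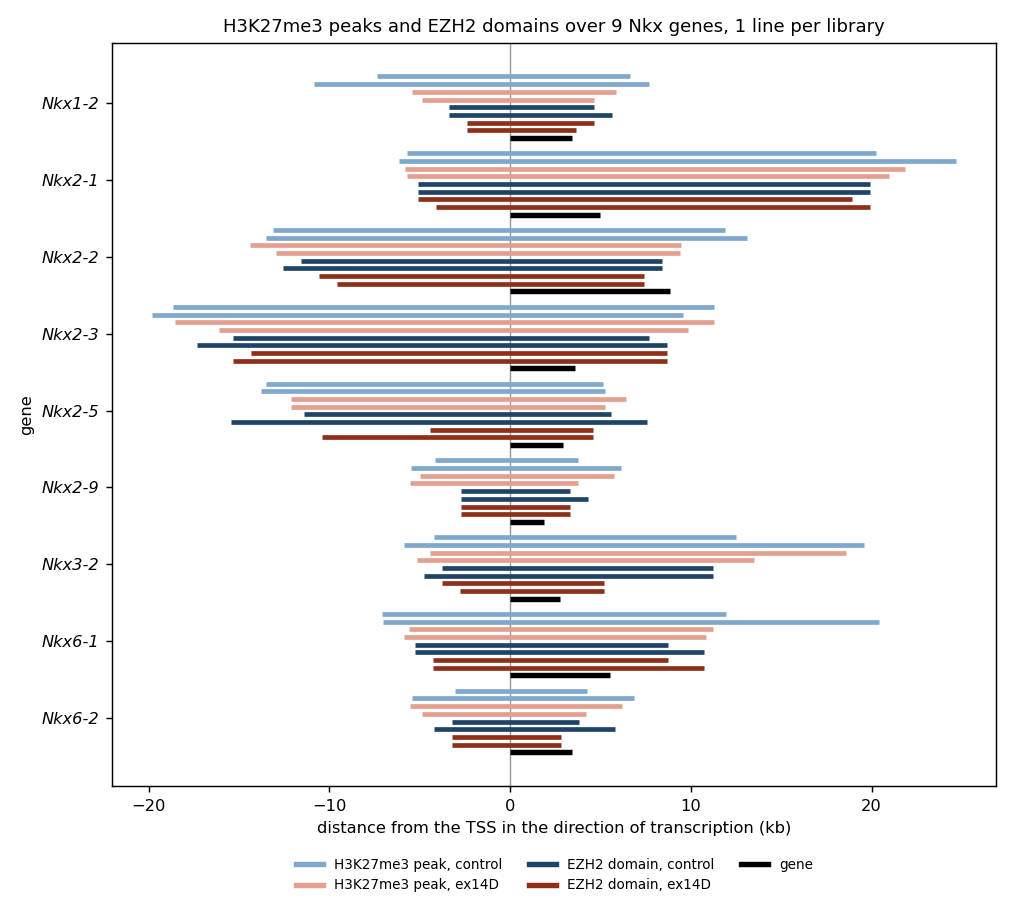
H3K27me3 peaks (pale) and EZH2 domains (dark) over each Nkx gene, 1 line per library, blue for control and red for ex14D, with the gene in black, against the distance in kb from the transcription start in the direction of transcription. All lines cross the start, domains lie mostly within peaks, and the ex14D domains at Nkx3-2 end 5.22 kb downstream where the control domains end at 11.2 kb.

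Set side by side, the largest H3K27me3 rise and the largest EZH2 fall were at different genes among the 6 with EZH2 counts. Nkx6-1 joined an H3K27me3 log2 fold change of 1.33 to the smallest EZH2 fall, -0.55, and Nkx2-2 joined 1.72 to -0.91. Nkx6-2 joined 0.98 to -1.17 and Nkx3-2 0.64 to -0.97. Nkx2-5 joined 1.12 to -0.99 and Nkx1-2 1.07 to -0.92. The EZH2 values of Nkx1-2, Nkx2-2, Nkx2-5 and Nkx3-2 lay between -0.91 and -0.99 with SE of 0.16 to 0.20, so their order is not resolved. Over these 6 genes Spearman's rho of the 2 log2 fold changes was 0.66, given as a description because the genes share the same 8 libraries. Among the reads on these 6 genes in the EZH2 libraries, Nkx6-1 took 28.7% (exact 95% interval 27.9% to 29.5%) and 28.5% (27.8% to 29.2%) in control and 33.6% (32.6% to 34.6%) and 37.2% (36.0% to 38.3%) in ex14D, a share that no scaling of the libraries alters.

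Other Nkx genes of the count tables were read in the same way. Nkx1-1, the partner of Nkx1-2, had 949 and 749 CPM of H3K27me3 in control and 2051 and 2625 CPM in ex14D, more than any of the 9, and its log2 fold change was 1.91 ± 0.22 (adjusted p = 2.74e-06). Nkx2-4, a relative of Nkx2-1 that lies 101 kb from Nkx2-2 on chromosome 2, had 744 and 552 CPM in control and 1146 and 1320 CPM in ex14D (1.38 ± 0.21, adjusted p = 5.33e-05). EZH2 at these genes changed by -0.43 ± 0.11 (Nkx1-1, adjusted p = 0.0685) and -0.65 ± 0.18 (Nkx2-4, adjusted p = 0.0788), short of the threshold. Nkx6-3 and Nkx2-6 had few H3K27me3 reads in the promoter window. MACS2 peaks still overlapped the window of each in both control libraries and in ex14D replicate 1, but not in ex14D replicate 2. At Nkx6-3 their fold enrichment was 9.40 and 6.23 in control and 24.7 in ex14D replicate 1. Nkx6-3, a factor of the stomach lining, had 69.0 and 81.1 CPM in control and 49.6 and 40.1 CPM in ex14D (-0.30 ± 0.30, adjusted p = 0.65). Nkx2-6, of the pharynx and heart, had at most 4 reads in any H3K27me3 library and was not tested. At Nkx6-3 EZH2 was low but fell, from 27.9 and 26.4 CPM to 14.6 and 11.9 CPM (-1.08 ± 0.11, adjusted p = 0.00341), and an EZH2 domain lay over its window in both control libraries and in no ex14D library.

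Genes that act with the Nkx factors were taken from lists by tissue, some of which share genes. In edgeR's test H3K27me3 was higher in ex14D at 15 of 23 other NK-class homeobox genes, 11 of 23 neural tube patterning genes, 7 of 12 heart genes, 6 of 16 thyroid, lung and pancreas genes and 9 of 13 forebrain and skeleton genes. The median log2 fold changes of these lists were 1.18, 0.91, 0.79, 0.41 and 1.17. Across the 5 lists 1 gene was called lower, Gli1, a target of hedgehog signalling, with -1.56 ± 0.48 (adjusted p = 0.0377), which DESeq2 did not call. EZH2 was lower at 10 of 16, 11 of 14, 2 of 6, 4 of 9 and 5 of 7 tested genes of the same lists. These shares stand beside the 5.85% of promoters called higher for H3K27me3 and the 7.88% of genes called lower for EZH2 among all tested. Among promoters at or above the lowest control value of the 9 Nkx promoters, the 9 included, 53.7% were called higher for H3K27me3. That limit was 2.32 as log2 over input. The median control level was below it in the neural tube (2.26), heart (1.97) and thyroid, lung and pancreas (1.92) lists, so this share is no like comparison for them. Among genes with an EZH2 domain over the promoter in both control libraries, 39.0% were called lower for EZH2. Whether the lists differ from such genes was not tested.

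In the neural tube list the largest rises were at Foxa2, the floor plate factor, with 1.73 ± 0.21 (adjusted p = 4.50e-06), and Olig2, the motor neuron progenitor factor next to the Nkx2-2 domain, with 1.59 ± 0.21 (adjusted p = 1.22e-05). EZH2 at Foxa2 changed by -0.60 ± 0.13 (adjusted p = 0.0301), and Olig2 was listed at 0. After Gli1 the lowest value was -0.96 ± 0.38 at Gli2, which did not pass (adjusted p = 0.122). Among other NK-class genes the largest rises were at Emx2 (1.69 ± 0.36, adjusted p = 0.00232) and Barhl2 (1.63 ± 0.21, adjusted p = 8.25e-06), both brain factors, and the lowest values were at Hhex (-0.69 ± 0.27, adjusted p = 0.12) and Noto (-0.11 ± 0.33, adjusted p = 0.894). EZH2 at Barhl2 changed by -0.61 ± 0.14 (adjusted p = 0.0428).

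In the heart list Gata6 (1.37 ± 0.33, adjusted p = 0.00758) and Hand2 (1.28 ± 0.29, adjusted p = 0.00372), both cardiac transcription factors, rose most in CPM after TMM scaling. Their windows held 0 input reads in control and 1 (Gata6) and 2 (Hand2) in ex14D, and as log2 over input both were lower in ex14D, Gata6 with 4.97 and 4.85 in control against 4.15 and 3.92, and Hand2 with 6.38 and 5.58 against 4.23 and 4.35. Mef2c (-0.23 ± 0.47) and Myocd (-0.03 ± 0.31), which act on muscle genes, lay lowest with adjusted p of 0.844 and 0.978. For thyroid, lung and pancreas, Foxe1 rose (1.37 ± 0.21, adjusted p = 5.26e-05), though over input its genotypes overlapped (4.42 and 4.01 in control, 4.42 and 4.47 in ex14D), and Tg, which encodes thyroglobulin, and Pax4 had -0.90 ± 0.40 and -0.70 ± 0.36 (adjusted p = 0.188 and 0.272). In the forebrain and skeleton list Lhx8 (1.69 ± 0.24, adjusted p = 2.98e-05) and Pax1 (1.54 ± 0.20, adjusted p = 8.62e-06), a partner of Nkx3-2 in the sclerotome, rose most, and Runx2 (-0.89 ± 0.52, adjusted p = 0.364) and Gdf5 (-0.08 ± 0.35, adjusted p = 0.932) lay lowest. EZH2 at Pax1 fell by 1.09 on the log2 scale (SE 0.18, adjusted p = 0.0115).

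Among the genes whose H3K27me3 profile was nearest to the median of the 9, by Euclidean distance over log2 values over input in the 4 libraries, were Adgrl3 (0.149), 5730488B01Rik (0.19), Ptf1a (0.233) and Reln (0.241). The median profile was 3.24 and 2.93 in control against 3.94 and 3.94 in ex14D, and Adgrl3 had 3.24, 3.02, 4.02 and 4.03. Ptf1a is a factor of pancreas and cerebellum and Reln an extracellular protein that guides migrating neurons.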

How the data were processed

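H3K27me3, input and EZH2 ChIP-seq libraries of E14 cells were analysed from the deposited files. The submitters' processing notes name Trimmomatic, Bowtie2, HTSeq, MACS2, ChIPseeker and the mm10 build. The authors counted whole reads per gene symbol, and the methods give windows of 1 kb around the 5′ most transcription start with no exception for EZH2. The deposited EZH2 counts follow gene span instead, which goes against that window. The authors called broad peaks per library with MACS2, which gives each a score (not used here), a fold enrichment over a control that is not stated, and −log10 p and q values. EZH2 domains per library came from hiddenDomains. The H3K27me3 domains were not used here, since in each library they ran past the ends of 8 chromosomes.

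Groups followed the labels. Rows naming no gene (reads on no feature 92.0 to 98.0% of counted reads for H3K27me3 and input, 33.8 to 34.9% for EZH2) were left out. The genotype comparison used the quasi-likelihood test of edgeR 4.0.16 (R 4.3.3, filterByExpr, TMM scaling, Benjamini-Hochberg threshold 0.05), with a design of genotype alone for each antibody, and with antibody and genotype together for H3K27me3 against input. SE is the log2 fold change divided by the root of F. DESeq2 1.42.0, other scalings, no filter, pseudocounts of 0.5 and 5 in place of 1 CPM, a 500 bp overlap in place of 1 bp, input correction, a −log10 q of at least 3, a replicate block and leaving out each library were the alternatives. Scaling to promoters without the mark and a crossed block were added after seeing the data. Exact intervals used scipy 1.17.1. Genes were placed by symbol on the GRCm38.p6 RefSeq annotation (24336 of 24500, 822 through an older symbol), and promoter sequences are RefSeq's or read from that genome. The models were tested on simulated counts.

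The 9 genes and the lists of partner genes were chosen with earlier results of these data known. Named genes were the 9, the other Nkx genes, the tested genes with the largest fall and largest rise in H3K27me3 (2 each) of every other list, the 5 genes with the nearest H3K27me3 profile, genes sharing a peak with a member, and the cell type markers. Some genes that this rule names are not reported here.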

Additional observations from a re-analysis of the deposited data

How the results depend on the processing

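No fitted log2 fold change of the 9 genes changed sign under the alternatives run. The level over input, which is not such a fit, did not rise at Nkx3-2, with a mean log2 of 3.08 in control and 3.06 in ex14D. H3K27me3: with library size only, 2176 promoters were lower and 398 higher and the members' median was 0.66. With all counted reads that median was 0.98 (all promoters -0.15), and Nkx2-9 (adjusted p = 0.0738) and Nkx3-2 (adjusted p = 0.139) were not called. DESeq2's Wald test called 269 lower, and not Nkx3-2 (adjusted p = 0.100). Without the low-count filter Nkx3-2 had an adjusted p of 0.0598. With the input change taken out, 0 of 9 members, 11 promoters lower and 27 higher were called and the members' median was 1.37. EZH2: genes called higher numbered 47 with library size only, 2 with DESeq2 size factors, 33 with all counted reads and 0 with DESeq2's Wald test (7 at an unadjusted p under 0.05). Nkx2-4 passed in DESeq2's Wald test (adjusted p = 0.0319).

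Deviations of libraries with the same replicate number correlated by -0.104 for H3K27me3 and -0.032 for EZH2 over the genes tested, which gave no sign of pairing. A weak correlation cannot show that the libraries were unpaired, since counting noise also weakens it. With a replicate block, 406 promoters were lower and 755 higher for H3K27me3, and 852 genes lower and 3 higher for EZH2. With the block Nkx3-2 was not called for H3K27me3 (adjusted p = 0.0904) and Nkx1-1 passed for EZH2 (adjusted p = 0.0216). The crossed block, added after seeing the data, called 795 promoters lower and 1185 higher.

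The members' median log2 over input, 3.08 in control and 3.88 in ex14D, was 3.69 and 4.74 with CPM over all counted reads, and in ex14D 3.89 with a pseudocount of 0.5 and 3.76 with 5. Leaving out each library in turn gave 5 to 9 members higher, 73 to 610 promoters lower, 255 to 797 higher, and a median over input of 2.93 to 3.24 in control and 3.93975 to 3.94301 in ex14D. H3K27me3 calls at Nkx2-9 and Nkx3-2 were also lost without either ex14D library, and Nkx6-2 without ex14D replicate 2. For EZH2 the ranges were 0 to 6 members lower, 0 to 1561 genes lower, 0 to 81 higher and a members' median of -1.36 to -0.64, the 0 calls coming without either control library. A lone library was assumed to vary like the other group. Peaks and domains stayed at all 9 genes except for the peaks under 3 in −log10 q.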
